A study of Mus musculus with 4 samples.

Results

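The genes described here are 10 extracellular matrix genes of mouse liver: the fibrillar collagen genes Col1a1, Col1a2 and Col3a1, the basement membrane collagen genes Col4a1 and Col4a2, the matrix proteins Sparc, Dcn and Fn1, and the metalloproteinase inhibitors Timp1 and Timp2. They were taken by symbol from the platform's probe annotation, which assigned 17 of the 12422 probe sets to them. All 10 had at least 1 probe set, out of 8251 genes named on the array. Liver RNA was hybridised to 4 Affymetrix MG_U74Av2 arrays, 2 labelled control mouse (WT7 and WT8, called control replicates 7 and 8) and 2 labelled Hepatic Reductase null (N7 and N8, called null replicates 7 and 8). RNA of 3 animals of a genotype was pooled per experiment according to the labels, whereas the control titles name a single mouse, so the p-values below measure only the spread between these 4 samples. No treatment is named. The labels name no strain, sex or age. In the mouse line usually known as hepatic reductase null, Cre driven by the albumin promoter deletes the floxed gene of NADPH-cytochrome P450 oxidoreductase (Por) in hepatocytes, so the cells that make most liver collagen keep the gene. The deposited labels do not state the allele. No probe set was assigned to Por, and the genotype could not be checked on these arrays. Null replicate 7 stood apart in 1 respect, a summed signal of pancreatic acinar markers of 3391.2 against 325.5 to 484.8 on the other arrays, so the collagen values are given below with and without it. Pairs of signals are printed with replicate 7 first and replicate 8 second.

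Collagens are triple helices of alpha chains. The alpha 1 and alpha 2 chains of type I collagen (Col1a1, Col1a2) and the alpha 1 chain of type III (Col3a1) assemble into the banded fibrils of scar tissue, whereas the type IV chains (Col4a1, Col4a2) form the open network of basement membranes. In liver the fibrillar chains come chiefly from hepatic stellate cells, the vitamin A-storing cells of the space between hepatocytes and sinusoids, and from portal fibroblasts. Activation of stellate cells after injury is known to raise their output of type I and type III collagen and of the tissue inhibitor Timp1, while plasma fibronectin (Fn1) is made largely by hepatocytes.

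RefSeq start site windows (GRCm38.p6) were found for 7 of the 10 genes. Examples are shown for Col1a2, Col3a1 and Sparc, with probe sets higher on both null arrays, and for Timp1, whose arrays did not separate. Col4a1 and Col4a2 were also higher on both null arrays and Timp2 also did not separate, but their windows are not printed. Each line gives the 150 bases before the annotated start, 5′ to 3′ on the gene's strand. Capitals mark matches on either strand to CCAAT (the CCAAT box), TATAAA (the TATA box), GGGCGG (the GC box) or TGANTCA (the AP-1 motif).
Col1a2, chr6:4505468-4505617, plus strand: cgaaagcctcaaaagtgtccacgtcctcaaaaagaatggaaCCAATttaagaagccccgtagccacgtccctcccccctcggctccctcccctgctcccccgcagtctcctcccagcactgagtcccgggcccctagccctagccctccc
Col3a1, chr1:45311388-45311537, plus strand: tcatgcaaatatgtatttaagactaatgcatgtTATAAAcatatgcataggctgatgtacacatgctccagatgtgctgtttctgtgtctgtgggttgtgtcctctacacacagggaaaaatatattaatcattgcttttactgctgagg
Sparc, chr11:55420081-55420230, minus strand: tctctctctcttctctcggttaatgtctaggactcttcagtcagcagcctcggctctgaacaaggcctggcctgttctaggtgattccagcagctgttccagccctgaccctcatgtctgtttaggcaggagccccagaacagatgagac
Timp1, chrX:20870016-20870165, plus strand: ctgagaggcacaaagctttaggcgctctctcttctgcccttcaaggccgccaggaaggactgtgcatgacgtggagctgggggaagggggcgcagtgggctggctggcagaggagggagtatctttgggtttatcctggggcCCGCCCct

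The 4 windows differ in composition and in their matches. That of Col3a1 had a GC content of 37.3% and 1 TATA box, which 7.57% of all 32851 windows of this length hold. The Col1a2 window had a GC content of 62.7% and 1 CCAAT box (24.5% of all windows), and the Timp1 window had 1 GC box (28.6% of all windows). None of the letters searched were in the Sparc window, and the AP-1 motif, held by 4.24% of all windows, was in none of the 7. Col4a1 and Col4a2 lie on opposite strands with annotated starts 21 bases apart, and these windows share no base. Both Col4 windows hold 1 CCAAT box, and the Col4a2 window holds 1 GC box as well. These matches describe the letters of the windows only.

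None of the matrix genes passed the test between genotypes, but among the probe sets bright enough to test, those of the type I, type III and type IV collagens, Sparc and Dcn were higher on each null array than on each control array, except 1 probe set of Col1a2. The Col3a1 probe sets too dim to test overlapped. The difference was 2.48-fold to 3.50-fold for Col1a1, Col1a2 (on its other probe set) and Col3a1, and 1.28-fold to 1.64-fold for Sparc, Col4a1, Col4a2 and Dcn. Timp1, Timp2 and Fn1 overlapped between genotypes. Values are deposited signals, which are linear intensities with no unit, and changes are differences of mean log2 signal, null minus control, from a limma fit over 7241 probe sets bright enough to test. Of the 17 probe sets, 12 were tested, covering all 10 genes, and each of the 12 had a signal above the brightness limit of 16.8 on both control arrays. At a Benjamini-Hochberg adjusted p under 0.05, 0 of the 12 were called, beside 0.387% of all tested probe sets (0.304% with a higher and 0.0829% with a lower null signal). At an unadjusted p under 0.05 in limma, 7 of the 12 were higher and 0 lower, beside 6.16% and 6.46% of all tested probe sets. Both null arrays lay above both control arrays for 8 of the 12, beside 20.4% of all tested probe sets. Both lay below for 0 of the 12, beside 23.4%. The change was positive for 10 of the 12, beside 48.9% of all tested probe sets. The median log2 change was 0.45 over the 12 and -0.01 over all tested probe sets. Some of the 12 share a gene, so these are not 12 separate measurements. The genes were also chosen with earlier results of these data known, so these shares describe them and are not independent support.

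**Figure D1:**
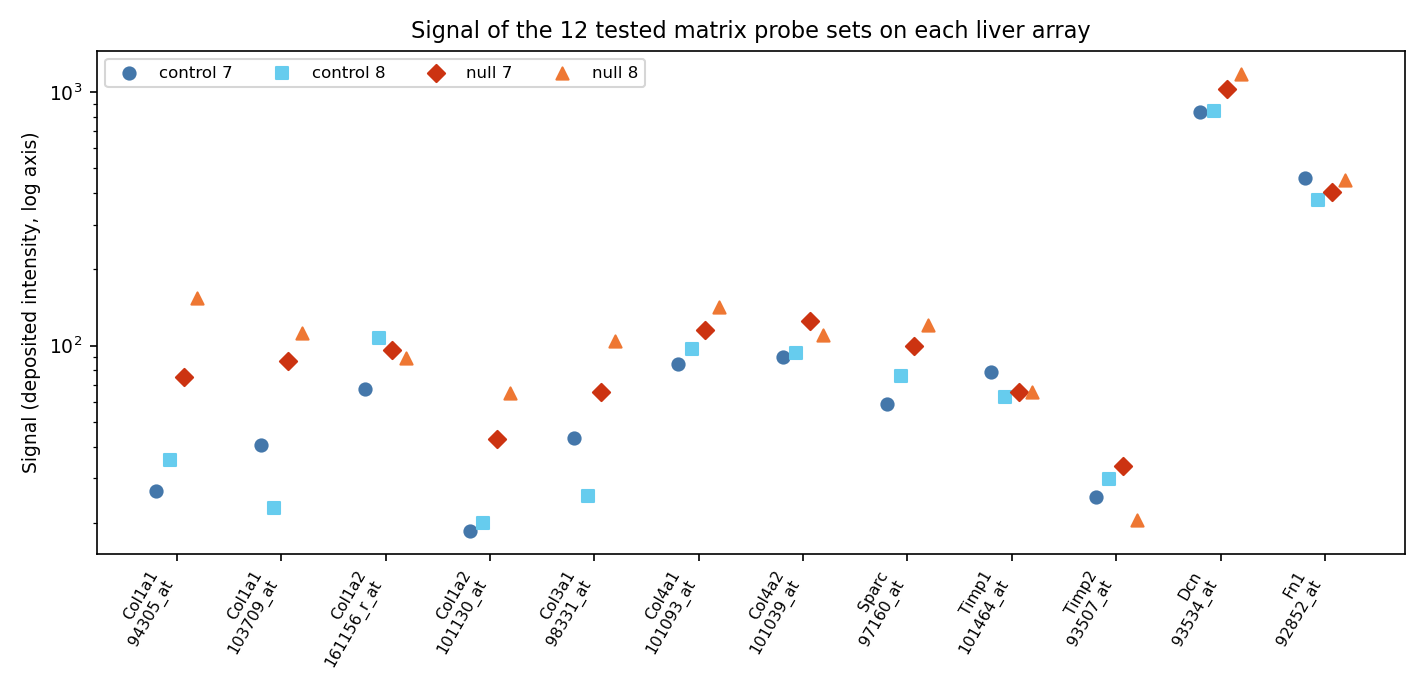
Deposited signal (log axis) of the 12 tested probe sets of the matrix genes on each of the 4 arrays, blue for control and red or orange for null liver. The null signals lie above both control signals for Col1a1, Col3a1, Col4a1, Col4a2, Sparc, Dcn and Col1a2 101130_at, and among the control signals for Timp1, Fn1 and Col1a2 161156_r_at, with Timp2 spread on both sides.

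Col1a1, which encodes the chain present in excess in type I collagen, had the largest changes of the 10 genes. Its brighter probe set, 94305_at, read 26.7 and 35.4 in control liver against 75.5 and 153.6 in null liver. Both null signals were more than 2-fold above either control signal, and they differed from each other about as much. The change was 1.81 ± 0.36 (log2, SE; 3.50-fold, 95% interval 0.95 to 2.66, adjusted p = 0.101). The second Col1a1 probe set, 103709_at, read 40.7 and 22.8 in control liver and 86.6 and 112.5 in null liver. Its change of 1.70 ± 0.32 (3.24-fold, adjusted p = 0.0965) was close to that of the first, so the pair of probe sets for this gene gave the same picture. The mean signal of 94305_at was 31.05 ± 6.15 in control and 114.6 ± 55.2 in null liver (SD, n = 2 each).

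Col1a2, the partner chain of type I collagen, gave a different answer on each of its probe sets. Probe set 101130_at read 18.6 and 20 in control liver against 42.9 and 65.0 in null liver, without overlap, a change of 1.45 ± 0.33 (2.74-fold, 95% interval 0.67 to 2.24, adjusted p = 0.146). The brighter probe set, 161156_r_at, read 67.7 and 106.8 in control liver and 96.0 and 89.2 in null liver. Here both null signals lay between the control signals, and the change was 0.12 ± 0.25 (95% interval -0.46 to 0.71, adjusted p = 0.888). The suffix _r_at marks a probe set designed under relaxed rules, which can also bind other transcripts. Which of the 2 follows the Col1a2 transcript was not tested.

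Col3a1, the type III chain that accompanies type I in fibrils, read 43.3 and 25.6 in control liver against 65.7 and 104.0 in null liver with probe set 98331_at. The groups did not overlap, and null replicate 8 was again the highest. The change was 1.31 ± 0.34 (2.48-fold, 95% interval 0.50 to 2.13, adjusted p = 0.193), from a mean of 34.45 ± 12.5 to 84.85 ± 27.1 (SD, n = 2 each). The other Col3a1 probe sets were too dim to test. Signals of 161984_f_at were 3.0 and 12.9 in control and 12.5 and 28.5 in null liver. Those of 102990_at were 0.4 and 0.6 in control and 0.9 and 10.2 in null liver, all but the last under the background floor of 7.1. On both dim probe sets the highest signal was that of null replicate 8.

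The basement membrane chains showed smaller differences than the tested probe sets of Col1a1, Col1a2 and Col3a1, other than Col1a2 161156_r_at. Col4a1 read 84.3 and 97.1 in control liver and 115.7 and 142.4 in null liver, a change of 0.50 ± 0.19 (1.42-fold, 95% interval 0.06 to 0.95, adjusted p = 0.337). Col4a2, transcribed from the neighbouring start on the other strand, read 90.0 and 93.8 in control liver against 125.0 and 109.9 in null liver. Its change was 0.35 ± 0.17 (1.28-fold, 95% interval -0.05 to 0.75, adjusted p = 0.450). Neither gene overlapped between genotypes. Null replicate 8 was the higher of the null arrays for Col4a1, and null replicate 7 for Col4a2.

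**Figure D2:**
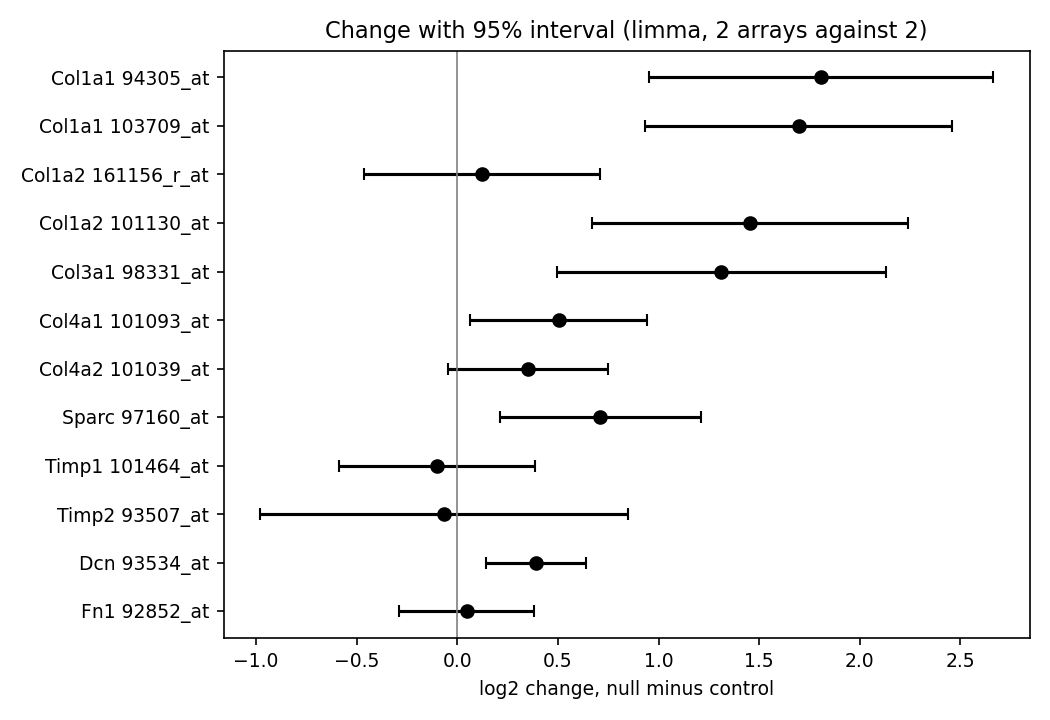
log2 change (null minus control) of each tested probe set with its 95% interval from limma, 2 arrays against 2. The intervals of both Col1a1 probe sets, Col1a2 101130_at, Col3a1, Col4a1, Sparc and Dcn lie above 0, and none of these passed after adjustment over 7241 probe sets.

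Set against each other, the mean of the fibrillar chains differed more between genotypes than that of the type IV chains, a comparison of sizes without a test. The mean log2 signal of Col1a1, Col1a2 and Col3a1 (brightest probe set of each), relative to its mean over the 4 arrays, was -0.59 and -0.49 in control liver and 0.28 and 0.80 in null liver, a change of 1.08. The same measure for Col4a1 and Col4a2 was -0.28 and -0.15 in control liver against 0.19 and 0.24 in null liver, a change of 0.43. Fibrillar minus basement membrane was thus -0.31 and -0.34 in control liver and 0.09 and 0.56 in null liver, a difference of 0.65 between genotypes without overlap. With plain _at probe sets, which exchanges 161156_r_at for 101130_at, the values were -0.44 and -0.66 in control liver against 0.20 and 0.90 in null liver, a difference of 1.10. This choice of probe set was made after the signals were seen. The smallest two-sided p an exact permutation test allows in this design is 0.333, so no p is given for these means. The size of the difference depended on null replicate 8, being 0.42 without it and 0.89 without null replicate 7.

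**Figure D3:**
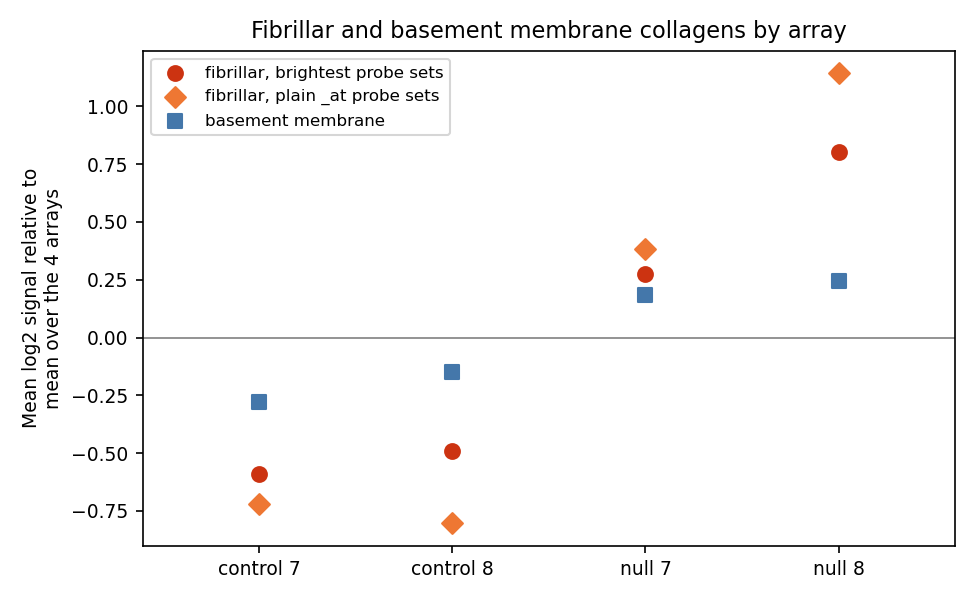
Mean log2 signal of the fibrillar (Col1a1, Col1a2, Col3a1) and basement membrane (Col4a1, Col4a2) collagen genes on each array, relative to the mean over the 4 arrays. The fibrillar points run from -0.59 and -0.49 in control to 0.28 and 0.80 in null liver with the brightest probe sets, and the basement membrane points from -0.28 and -0.15 to 0.19 and 0.24.

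The matrix proteins Sparc and Dcn lay on the side of the collagens, and Fn1 did not separate. Sparc, a collagen-binding matricellular glycoprotein, read 58.8 and 76.0 in control liver and 99.8 and 120.1 in null liver. Its groups did not overlap, and its change was 0.71 ± 0.21 (1.64-fold, 95% interval 0.21 to 1.21, adjusted p = 0.247). Dcn encodes decorin, a small proteoglycan that coats collagen fibrils and binds TGF-beta. Its control signals were closely matched at 838.4 and 843.9, against 1029.2 and 1183.5 on the null arrays. This change of 0.39 ± 0.10 (1.31-fold, 95% interval 0.14 to 0.64, adjusted p = 0.204) had the smallest error among the tested matrix probe sets. Fn1 read 456.7 and 375.2 in control liver against 404.8 and 451.3 in null liver. Both null signals fell within the control range, and the interval of its change (0.05 ± 0.14, 95% interval -0.29 to 0.38) is narrow beside those of the collagens.

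Timp1 and Timp2 inhibit the metalloproteinases that degrade collagen. Timp1 read 78.9 and 62.8 in control liver and 65.7 and 65.5 in null liver, a change of -0.10 ± 0.20 (95% interval -0.59 to 0.38, adjusted p = 0.887). The null signals were nearly equal to each other and lay between the control signals. The upper end of this interval lies below the lower ends for both Col1a1 probe sets and for Col1a2 101130_at and Col3a1 98331_at. This sets intervals side by side and is not a test of the difference. The second Timp1 probe set, 162107_r_at, was above the floor only on control replicate 7 (9.3) and at or under 0.4 on the others. Timp2 read 25.4 and 29.7 in control liver against 33.5 and 20.6 in null liver with 93507_at, a change of -0.06 ± 0.38 whose interval, -0.98 to 0.85, leaves nearly a doubling or a halving possible. Its other probe sets were too dim to test, with signals of 5.2 and 11.1 in control and 15.0 and 0.8 in null liver for 160116_at, and of 0.6 to 1.1 on all 4 arrays for 161515_i_at.

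Wider lists of matrix genes, each gene represented by its brightest tested probe set, were described in the same way. Of the 4 tested fibrillar collagen genes 0 passed, with 4 positive and 0 negative changes and a median of 0.73, beside -0.01 over all tested probe sets. The fourth gene, Col5a1, a minor fibrillar chain that starts fibrils, was at 0.16 ± 0.27. Of 11 basement membrane genes 0 passed, with 9 positive and 2 negative changes and a median of 0.32. Lama5, a laminin chain, was at 0.98 ± 0.29 and Hspg2, the proteoglycan perlecan, at 0.55 ± 0.23, although a dim second probe set of Lama5 read 19.0 and 20.3 in control and 5.5 and 4.6 in null liver. Col18a1, whose endostatin-bearing chain hepatocytes make, was on the other side at -0.23 ± 0.10, with signals of 989.9 and 1069.4 in control and 914.0 and 838.9 in null liver. All 4 tested probe sets of Col18a1 had both null signals below both control signals.

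Of the 8 other collagens tested 0 passed, with a median of 0.20. Col6a3, a chain of the beaded filaments around fibrils, read 25.2 and 31.6 in control and 54.5 and 64.0 in null liver, a change of 1.07 ± 0.26 (adjusted p = 0.168). Its partner chains Col6a1 (0.22 ± 0.19) and Col6a2 (-0.05 ± 0.45) were nearer to 0. Col14a1, a fibril-associated collagen, was at 0.69 ± 0.27. Col6a2 lies outside the rule for named genes and is given because it shares the type VI molecule.

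Of 9 genes of collagen folding and processing 0 passed, with 8 positive and 1 negative change and a median of 0.40. Ppib, a prolyl isomerase of the endoplasmic reticulum, read 917.9 and 957.4 in control and 1171.4 and 1170.6 in null liver (0.32 ± 0.09). Crtap, a subunit of the prolyl 3-hydroxylase complex, was at 0.64 ± 0.21, and Pcolce, which speeds removal of the C-terminal propeptide, at 0.54 ± 0.25. Bmp1, the protease that removes it, was at 0.48 ± 0.21 on its brightest probe set and at -0.08 ± 0.22 on another. The small leucine-rich proteoglycans Lum (0.63 ± 0.24) and Bgn (0.25 ± 0.12) were, like Dcn, higher on both null arrays, with another probe set of Bgn at 0.13 ± 0.17. Of these 3, 0 passed.

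**Figure D4:**
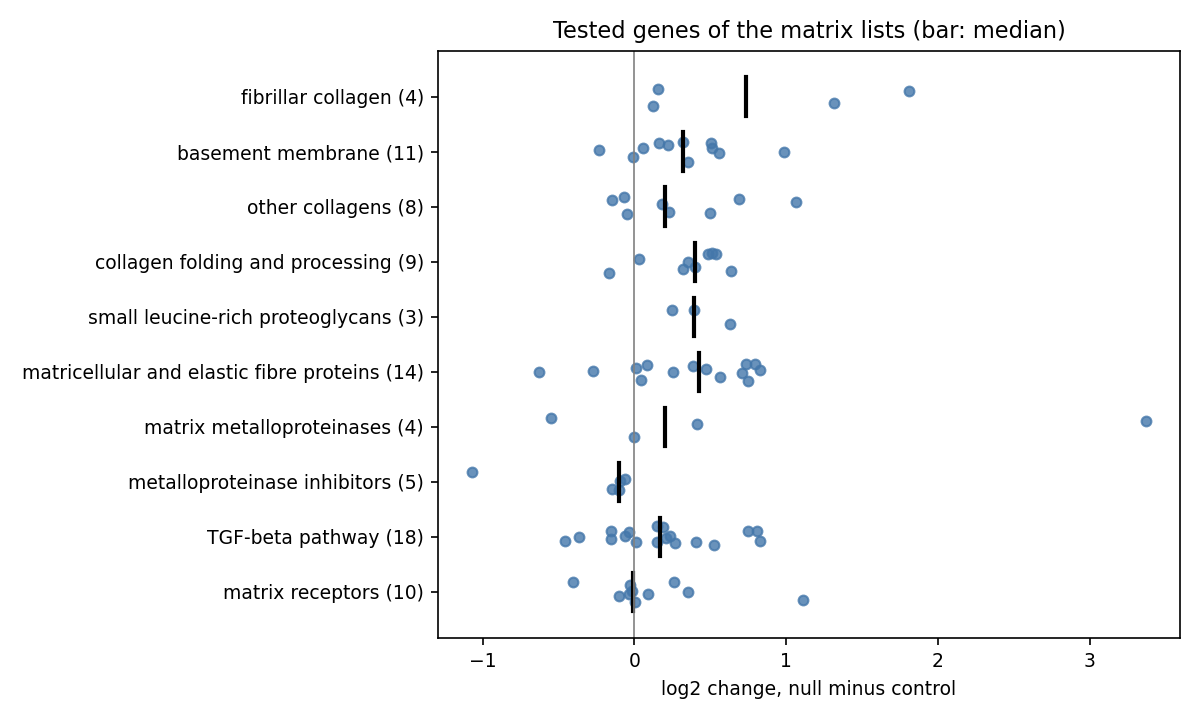
log2 change (null minus control) of every tested gene in each matrix list, brightest tested probe set per gene, with the number of genes in brackets and a bar at the list's median. Medians run from -0.10 for the metalloproteinase inhibitors to 0.73 for the 4 fibrillar collagens, and the point at 3.37 is Mmp12.

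Of 14 matricellular and elastic fibre genes 0 passed, with 12 positive and 2 negative changes and a median of 0.43. Tgfbi, a TGF-beta-induced matrix protein, was at 0.75 ± 0.22 and Tnxb, tenascin X, at 0.47 ± 0.23 (0.24 ± 0.28 with overlap on another probe set), whereas vitronectin (Vtn), a plasma protein of hepatocytes, was at -0.27 ± 0.07. Of 18 TGF-beta pathway genes 0 passed, with a median of 0.17. The co-receptor Eng was at 0.23 ± 0.10, the signal transducer Smad4 at -0.45 ± 0.20 and the type I receptor Acvrl1 at 0.81 ± 0.44 on its brightest probe set. That Acvrl1 probe set overlapped between genotypes and ran from 0.29 to 1.32 with 1 array left out, while 2 other tested probe sets of the gene had both null signals below both control signals, at -0.38 ± 0.34 and -1.22 ± 0.54, so no direction is given for it. The ligand Tgfb1 was at 0.15 ± 0.33 and the TGF-beta target Ccn2 at 0.83 ± 0.49, with signals of 11.7 and 14.1 in control and 21.9 and 23.7 in null liver. Ccn2, a member of the matricellular list too, was above the brightness limit on the null arrays only and entered the test through them. Tgfb1 and Ccn2 were chosen after their values were known. Of 10 matrix receptors 0 passed, with 5 positive and 5 negative changes and a median of -0.01. The syndecans Sdc1 (0.35 ± 0.15) and Sdc4 (-0.41 ± 0.22) lay on opposite sides.

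On the degrading side, 1 of 4 tested metalloproteinase genes was called higher in null liver, beside 0.304% of all tested probe sets. It was the macrophage elastase Mmp12, at least 10.3-fold higher, since both control signals lay under the floor (adjusted p = 0.0377 in limma). The called probe set has the suffix _r_at too, which marks relaxed design rules, so it can also bind other transcripts. Mmp12 read 5.7 and 2.5 in control and 55.7 and 96.9 in null liver, so it passed the brightness limit only through the group where it was high, and a tested Mmp12 had to differ. Its second probe set did not pass (adjusted p = 0.102). The call ended without any 1 array (adjusted p = 0.0819 to 0.266). Mmp14, which activates Mmp2 at the cell surface, was at -0.0010 ± 0.16. Mmp2, Mmp3 and Mmp8, which cleave matrix proteins, lay under the floor on all 4 arrays. Of 5 metalloproteinase inhibitors 0 passed, and all 5 changes were negative with a median of -0.10. Pzp, at -0.15 ± 0.07, was the only 1 with both null signals below both control signals. Timp3 was at -0.10 ± 0.18 and Reck, a membrane inhibitor with 1 null signal under the floor, at -1.07 ± 0.66. The Reck change ran from -1.86 without null replicate 7 to -0.28 without null replicate 8, and was -0.14 with the floor at the 50th percentile.

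At an unadjusted p under 0.05 in limma, which 6.16% of all tested probe sets passed as higher and 6.46% as lower, the genes that were higher numbered 2 of 4 fibrillar collagens, 3 of 11 basement membrane genes, 2 of 8 other collagens, 2 of 9 folding genes, 2 of 3 small proteoglycans, 2 of 14 matricellular genes, 1 of 4 metalloproteinases and 1 of 18 TGF-beta pathway genes. These include Col1a1, Col3a1, Col4a1, Sparc and Dcn, and Tgfbi is counted in both the matricellular and the TGF-beta lists. The metalloproteinase is Mmp12. The TGF-beta share lies near that of all probe sets. The lists were chosen with earlier results of these data known, so these counts describe them and are not a test. There was 1 matricellular gene, Vtn, that was lower, and 0 of 5 inhibitors and 0 of 10 receptors passed in either direction.

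Marker lists of liver cell types were set beside these values. In bulk liver a change in the number of cells of a type and a change in RNA per cell cannot be told apart. Of 12 tested stellate cell and fibroblast markers, from a list that leaves out all 10 genes described here, 0 passed, 9 were positive and 3 negative, and the median was 0.33. Its summed signal was 886.6 and 974.5 in control liver and 1096.9 and 1231.3 in null liver. Bgn alone gave 459.0 and 511.4 of this in control and 545.1 and 608.7 in null liver. Bgn and Lum are also members of the small proteoglycan list above. Both null signals lay above both control signals for 4 of the 12 markers and below for 0, beside 20.4% and 23.4% of all tested probe sets. These 4 were Vcam1, an adhesion molecule also of endothelium (0.88 ± 0.24), Tagln (0.50 ± 0.25), Lum and Bgn. The other tested markers of this list overlapped between genotypes, among them Acta2, Des and Reln. The 3 negative changes were those of Pdgfrb (-0.37 ± 0.61), Gfap (-0.22 ± 0.52) and Thy1 (-0.23 ± 0.60). Acta2, smooth muscle actin, read 14.7 and 32.5 in control and 24.0 and 29.7 in null liver. Desmin (Des) read 19.2 and 17.7 in control and 35.2 and 16.3 in null liver, and Reln 125.9 and 137.6 against 130.9 and 173.8. Acta2, Des and Reln did not separate the genotypes, and which cells the collagen signal came from was not tested.

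The summed signal of 17 Kupffer cell and macrophage markers was 2933.5 and 2906.0 in control liver against 3689.4 and 4022.0 in null liver. Of 16 tested markers 2 passed as higher, Mpeg1 and Mmp12, beside 0.304% of all tested probe sets. Of these, Mmp12 entered the test only through its null signals. Both null signals lay above both control signals for 12 of the 16, beside 20.4% of all tested probe sets. They lay below for 1, Msr1 (-0.46 ± 0.32), beside 23.4%. The median was 0.29, and markers such as Clec4f (-0.01 ± 0.11) and Csf1r (0.11 ± 0.15) overlapped between genotypes. The sum of 14 hepatocyte markers was 63900.3 and 62732.1 in control and 60355.1 and 57937.1 in null liver. Both null signals lay below both control signals for 9 of the 14, beside 23.4% of all tested probe sets. They lay above for 1, Hpx, beside 20.4%, and the change was positive for 5 of the 14. Neither sum overlapped between genotypes, and null replicate 8, with the highest fibrillar signals, had the highest macrophage and the lowest hepatocyte sum. Their part in the collagen values was not tested. The endothelial sum was 1540.2 and 1556.8 in control and 1824.4 and 1639.4 in null liver, with 0 of 15 tested markers passed and a median of 0.07. Vascular smooth muscle and cholangiocyte sums overlapped between genotypes (117.3 to 248.1 against 220.8 to 244.4, and 427.8 to 511.0 against 476.7 to 568.1). In the mesothelial list, whose sum was 1310.1 and 1300.3 in control and 2061.5 and 2565.1 in null liver, the keratin Krt8 passed (0.89 ± 0.10, adjusted p = 0.0261). The calls of Krt8 and Mpeg1 ended without any 1 array too (adjusted p = 0.0702 to 0.185 and 0.0700 to 0.118). Hepatocytes and bile ducts express Krt8 and Krt18 too, and mesothelin (Msln) was under the floor on all 4 arrays. The adipocyte sum was 3612.5 and 3843.1 in control and 4394.4 and 3604.3 in null liver. Most of it was Car3, with 3414.5 and 3640.0 in control and 4134.5 and 3335.1 in null liver, so it says little of the other adipocyte markers.

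**Figure D5:**
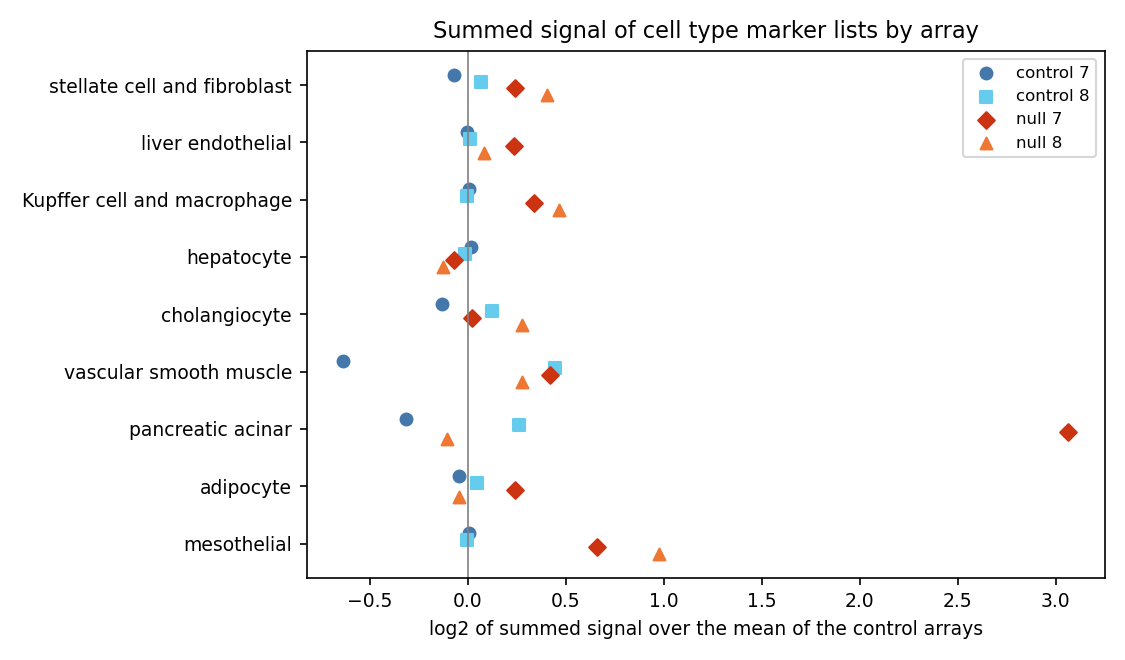
Summed signal of each cell type marker list on each array, as log2 of its ratio to the mean of the control arrays (at 0). Null replicate 7 stands apart in pancreatic acinar markers, and both null arrays lie above both control arrays for the stellate cell, endothelial, macrophage and mesothelial lists. Bright genes weigh most in these sums, such as Bgn in the stellate cell list and Car3 in the adipocyte list.

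Among the markers of the exocrine pancreas, Ctrb1, a chymotrypsinogen, had a signal of 1307.3 on null replicate 7, against 58.0 and 71.8 on the control arrays and 78.7 on null replicate 8. Computed without null replicate 7, the collagen changes were 2.32 ± 0.30 for Col1a1 94305_at, 1.75 ± 0.37 for Col1a2 101130_at, 1.64 ± 0.40 for Col3a1 98331_at and 0.65 ± 0.20 for Col4a1, each larger than with all arrays, and 0.26 ± 0.20 for Col4a2, which was smaller. None passed the test. Without null replicate 8 the changes were 1.30 ± 0.33 for Col1a1, 1.15 ± 0.41 for Col1a2 and 0.98 ± 0.41 for Col3a1 on the same probe sets. Col1a2 161156_r_at is not in this set, and its null signal was lower on replicate 8 (89.2) than on replicate 7 (96.0). Its change ran from -0.21 to 0.45 with 1 array left out.

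The tested named genes with a profile over the 4 arrays most like the mean of the 3 fibrillar genes, by Euclidean distance of log2 signals centred on their mean, were Idh2 (distance 0.07), Sec22b (0.12), Lyz2 (0.14), Klf6 (0.14) and Lilr4b (0.17). Idh2, the mitochondrial isocitrate dehydrogenase, read 194.0 and 213.7 in control and 373.9 and 504.8 in null liver. Lyz2, macrophage lysozyme, read 97.2 and 119.3 in control and 195.7 and 273.1 in null liver, and Klf6, a transcription factor, 31.5 and 38.9 against 61.6 and 89.2. With 4 arrays many genes share such a profile, and none of the 5 passed the test (adjusted p = 0.0696 to 0.421 in limma).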

How the data were processed

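Each deposited value is a probe set's linear intensity. Per the labels, the authors derived it with Affymetrix GCOS software from matched and mismatched probes and normalised chips by total fluorescence, with no version or target stated there. Signals were not normalised again. The 66 control probe sets were left out. Signals were floored at 7.1 (the 25th percentile of the pooled signals) and converted to log2, which understates changes of dim genes, and probe sets with a mean above 16.8 (the 40th percentile) were tested. Between 24.7% and 25.6% of an array's probe sets lay at or under the floor. Array medians ran from 26.2 to 28.4, and log2 signals correlated at 0.971 within the control pair, 0.962 within the null pair and 0.961 to 0.963 between genotypes, taken across probe sets (not independent). The number of arrays limits the precision.

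The genotype comparison used limma 3.58.1 under R 4.3.3 (lmFit, and eBayes with a trend in intensity; two-sided), with Benjamini-Hochberg adjustment over 7241 probe sets and a threshold of 0.05. The spread rested on 2 residual and 4.78 pooled degrees of freedom. The steps were tested on simulated data. Symbols were updated by gene identifier to GRCm38.p6 (10817 probe sets matched). Of the 12422 probe sets 10833 had 1 symbol, 396 several and 1193 none here. Named genes were the 10 genes themselves, up to 4 of smallest p and any past the threshold in each matrix list, and the 5 nearest profiles. Of these, Col9a1, Adam10, Adam17, Itga7 and Sdc3 are not described, and Pzp is not among the values counted under other settings. The genes and lists were chosen with earlier results of these data known. Alternatives were the floor, an added constant of 16, no filter, quantile and median scaling, no trend, a replicate block, each array left out, and the choice of probe set.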

Additional observations from a re-analysis of the deposited data

How the results depend on the processing

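Under 12 other settings of the fit, 135 of 144 values of the 12 tested matrix probe sets kept their direction and their side of the threshold, as did 440 of 478 values of 40 probe sets of other named genes. These counts overstate the stability. Leaving out the filter or the trend, or adding a replicate block, cannot alter the log2 change, so no direction could turn there. As 0 of the 12 matrix probe sets were called, keeping their side meant staying uncalled. The deviations of same-numbered arrays from their group means correlated at -0.03 over 7241 probe sets, so they showed no common deviation. This value does not settle whether the numbers 7 and 8 pair the arrays. With the numbers as a replicate block, limma called 37 probe sets higher and 15 lower (22 and 6 without), and 1 matrix probe set was called higher, Col1a1 94305_at (adjusted p = 0.0357, range 0.0357 to 0.658 over its settings), as were Idh2 (0.0318) and Lyz2 (0.0479) among the other named genes. Over all probe sets the calls were 0 higher and 1 lower with the floor at the 50th percentile, which lies above the filter so that all 12422 were tested, 0 and 0 without a filter or without an intensity trend, and 12 lower with quantile normalization. At an unadjusted p under 0.05 limma gave 408 and 484 with that floor, 566 and 642 without a filter and 407 and 340 without a trend. The cause was not tested for the trend and quantile settings. With 1 array left out, the calls ranged from 10 to 13 higher and from 0 to 4 lower, and 0 matrix probe sets were called. The fibrillar change moved to 1.52, and its difference from basement membrane to 1.10, with plain _at probe sets. Without 1 array they were 0.82 to 1.34 and 0.42 to 0.89, and the basement membrane change was 0.36 to 0.49. Probe sets near 0 turned sign. Timp2 93507_at was at 0.087 with the floor at the 50th percentile and Fn1 92852_at at -0.025 with median centring. With 1 array left out, the changes ran from -0.42 to 0.29 for Timp2 93507_at, from -0.096 to 0.19 for Fn1, from -0.21 to 0.45 for Col1a2 161156_r_at, from -0.27 to 0.063 for Timp1 101464_at, from -0.15 to 0.47 for Col5a1, from -0.0998 to 0.098 for Mmp14, from -0.28 to 0.86 for Acta2, from -0.54 to 0.44 for Col6a2, from -0.21 to 0.018 for Timp3, from -0.30 to 0.59 for Tgfb1, from -0.18 to 0.93 for Des and from -0.0079 to 0.40 for Reln. With the floor at the 50th percentile Col6a2 was at 0.083, Acta2 at -0.065 and Ccn2, then at the floor on all 4 arrays, at 0, and Mmp14 was at 0.0055 with quantile normalization. The calls of Mmp12, Mpeg1 and Krt8 ended with the floor at the 50th percentile, without the filter and without a trend. Signals near the floor limit Timp2, Acta2 and the dim Col3a1 probe sets.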
